A study of Mus musculus with 9 samples.

Results

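Foxa1, Gata3, Tbx2, Tbx3, Cited1, Cited2 and Myb encode transcription factors and coactivators tied to the hormone-sensing lineage of the mammary epithelium. These 7 genes were chosen by name from 27179 genes in a count table, and all 7 were found and passed the filter on low counts. They were followed across 3 luminal cell populations of the adult mouse mammary gland, each with 3 libraries. Cells negative for lineage markers were sorted on CD14, a surface protein, and on a YFP reporter whose recombination depended on PR-cre, a Cre recombinase tied to the progesterone receptor gene. HR-negative LP cells were CD14 positive and YFP negative, HR-positive LP cells were CD14 positive and YFP positive, and ML cells were CD14 negative. The sample labels call ML cells YFP positive and the design text calls them YFP negative, and the sample labels were followed. PR-cre and the YFP reporter are common to all 3 populations, and a Cre reporter marks a cell by past as well as present Cre activity. The age, strain and number of mice are not given in the labels, so p-values measure the spread between these libraries, which may be technical.

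FOXA1 is a pioneer factor that opens chromatin for the estrogen receptor, and GATA3 is a zinc finger factor required for luminal differentiation. TBX2 and TBX3 are closely related T-box repressors, and TBX3 is needed for the first mammary buds of the embryo. CITED1 and CITED2 do not bind DNA themselves. They bind the acetyltransferases p300 and CBP, CITED1 as a coactivator of the estrogen receptor and CITED2 in competition with the hypoxia factor HIF1A. MYB binds DNA directly, is best known from blood progenitors and is an estrogen-responsive gene in breast cancer cells.

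Promoter sequences are shown for Foxa1 and Myb, which were higher in the reporter-positive cells, and for Cited2, which was lower. Cited1 and Gata3 were also higher and are not shown. The genes shown are those with a match to a motif searched. Each run gives the 250 bases before an annotated start from RefSeq (GRCm38.p6), 5′ to 3′ on the strand of the gene. The Foxa1 start (57546111) lies inside the annotated gene span, which ends at 57548029, so the outer end of that gene was not searched. Capitals mark matches on either strand to the motifs searched. The forkhead motif was TGTTTAC, with TATTTAC as a second form of it. The GATA motif was AGATAA, with TGATAA as a second form. The T-box motif was GGTGTGA. The MYB motif was TAACNG, with CAACNG as a second form. The estrogen response element was searched as its full palindrome with any letters in the spacer.
Foxa1, chr12:57546112-57546361, minus strand: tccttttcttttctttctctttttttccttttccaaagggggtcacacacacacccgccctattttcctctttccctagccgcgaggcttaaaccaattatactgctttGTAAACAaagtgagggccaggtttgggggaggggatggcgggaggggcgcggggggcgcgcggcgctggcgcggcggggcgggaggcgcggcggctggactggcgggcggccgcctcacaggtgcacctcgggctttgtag
Myb, chr10:21160985-21161234, minus strand: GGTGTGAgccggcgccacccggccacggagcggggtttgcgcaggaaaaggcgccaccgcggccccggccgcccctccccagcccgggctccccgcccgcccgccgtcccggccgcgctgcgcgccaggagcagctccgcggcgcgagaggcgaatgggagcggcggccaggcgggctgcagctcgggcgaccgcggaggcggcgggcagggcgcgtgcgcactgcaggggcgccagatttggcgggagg
Cited2, chr10:17722978-17723227, plus strand: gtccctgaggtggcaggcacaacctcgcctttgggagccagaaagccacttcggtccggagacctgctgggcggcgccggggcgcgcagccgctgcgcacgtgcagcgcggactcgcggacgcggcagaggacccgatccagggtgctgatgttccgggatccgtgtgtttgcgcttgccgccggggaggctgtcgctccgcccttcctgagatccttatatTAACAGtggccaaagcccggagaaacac

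The Foxa1 run held a match to the forkhead motif, the kind of site that FOXA1 itself binds, on the opposite strand with its first base 141 bases before the start. The Myb run opened with the T-box motif, 250 bases before the start, and a forkhead match lay 33 bases after that start. Cited2 had a single MYB motif, 28 bases before the start. Windows of 250 bases before to 50 after a start were on hand for 5 of the 7 genes, with 3 starts for Cited1. Those of Gata3 and Cited1 held none of the 5 motifs, and none of the 7 windows held a GATA motif or an estrogen response element. The Gata3 start (9878600, minus strand) lies inside a gene span ending at 9887953, so the outer end of Gata3 was not searched. Among 32851 such windows of all genes, 6.54% held the forkhead motif, 18.6% the GATA motif, 3.98% the T-box motif, 49.7% the MYB motif and 0.07% the estrogen response element. A match is a description of the letters and not a bound site. All 7 windows were rich in G and C, at 59.7% to 75% against a median of 52.7% over all windows.

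Libraries held between 27219103 and 108119756 counts. From HR-negative LP through HR-positive LP to ML, the gate gene Cd14 stood at 1110 ± 103, 324 ± 35.2 and 24.7 ± 6.04 CPM, and Pgr, the progesterone receptor gene, at 9.42 ± 5.54, 279 ± 65.8 and 435 ± 144 CPM (SD, n = 3). CPM here are counts scaled to a fixed library total after correction for composition (TMM). Pan-luminal keratin, claudin and Epcam genes summed to between 13600 and 18200 CPM in every library, while singly Krt7 and Krt19 rose, and Epcam and Cldn3 fell, from HR-negative to HR-positive LP. HR-negative LP replicate 3 stood apart on the second principal component, and no call on a member was lost without it.

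Foxa1 (gene ID 15375, chromosome 12, 57540628 to 57548029, mm10) was among the members that separated HR-negative LP from both other populations. It stood at 39.3, 70.4 and 54.5 CPM in the HR-negative LP libraries, at 392, 388 and 282 CPM in HR-positive LP and at 540, 541 and 351 CPM in ML. Every HR-positive LP and ML library lay above every HR-negative LP library, as happened for 24.4% of tested genes between the LP populations, and ML overlapped with HR-positive LP. The gene rose in HR-positive LP over HR-negative LP by a log2 fold change of 2.69 (95% interval 2.13 to 3.25, adjusted p = 2.82e-05), which is 6.47-fold. Between ML and HR-positive LP it differed by 0.43 (-0.09 to 0.96, adjusted p = 0.536), which did not pass the test. The interval still includes a difference of nearly 1 on the log2 scale.

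Gata3 (gene ID 14462, chromosome 2, 9857078 to 9887953) was present in all 3 populations and differed far less. HR-negative LP libraries were at 122, 111 and 123 CPM, HR-positive LP libraries at 190, 183 and 149 CPM, and ML libraries at 205, 184 and 132 CPM. The lowest HR-positive LP and ML libraries were close above the highest of HR-negative LP, without overlap. Gata3 rose in HR-positive LP by 0.56 on the log2 scale (95% interval 0.18 to 0.93, adjusted p = 0.0302), or 1.47-fold, and ML stood at the same distance from HR-negative LP (0.56, 0.18 to 0.93, adjusted p = 0.0215). Between ML and HR-positive LP the interval ran from -0.38 to 0.37. Single libraries decided both calls. The first had an adjusted p of 0.0861, 0.107 and 0.101 when HR-negative LP replicate 2, HR-positive LP replicate 1 or HR-positive LP replicate 2 was left out. The second had one of 0.0651, 0.0961 and 0.0781 when HR-negative LP replicate 2, ML replicate 1 or ML replicate 2 was left out.

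**Figure D1:**
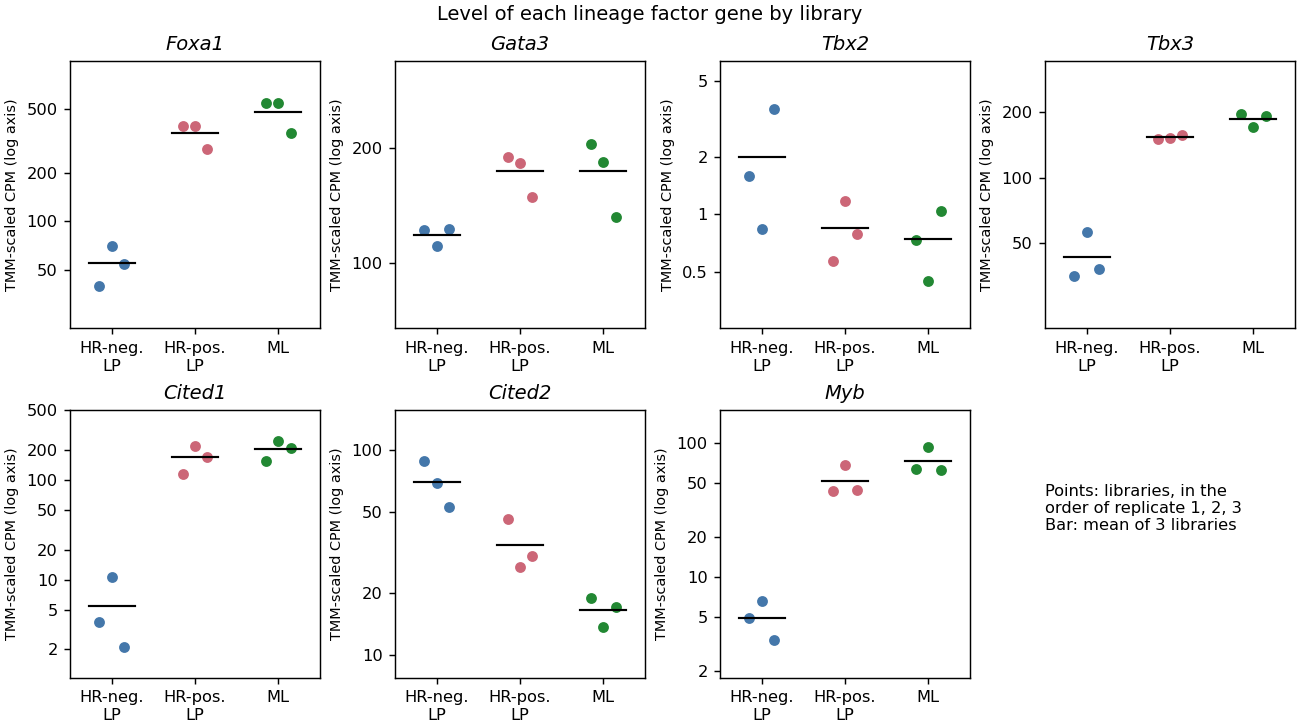
TMM-scaled CPM (log axis, a different range in each panel) of the 7 genes in the 9 libraries, grouped by population, with a bar at the mean of 3 libraries. Foxa1, Tbx3, Cited1 and Myb were low in HR-negative LP and high in both other populations, Cited2 ran the other way, and Tbx2 stood at or below 3.58 CPM throughout.

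The T-box pair differed in level and in pattern. Tbx3 (gene ID 21386, chromosome 5, 119670534 to 119684724) stood at 35.5, 56.3 and 38.1 CPM in HR-negative LP, at 151, 152 and 158 CPM in HR-positive LP and at 197, 172 and 192 CPM in ML. It had the tightest HR-positive LP libraries of the 7 genes, and it was the single member whose ML libraries all lay above all HR-positive LP libraries. Tbx3 rose 3.54-fold in HR-positive LP (log2 fold change 1.82, 95% interval 1.44 to 2.21, adjusted p = 3.03e-05). The further difference of 0.28 between ML and HR-positive LP (-0.09 to 0.66, adjusted p = 0.587) did not pass the test. ML stood above HR-positive LP without overlap for 10.5% of tested genes, and the populations did not overlap in either direction for 27%.

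Tbx2 (gene ID 21385, chromosome 11, 85832615 to 85841948) was nearly silent, with between 21 and 100 counts per library. Its levels were 1.59, 0.839 and 3.58 CPM in the HR-negative LP libraries, 0.572, 1.18 and 0.789 CPM in HR-positive LP and 0.737, 0.447 and 1.04 CPM in ML. The populations overlapped, and the highest value belonged to HR-negative LP replicate 3, the library that stood apart. HR-positive LP differed from HR-negative LP by -1.23 on the log2 scale (95% interval -2.75 to 0.29, adjusted p = 0.21) and ML by -1.43 (-2.97 to 0.11, adjusted p = 0.122). ML against HR-negative LP was called without HR-negative LP replicate 2 (-1.80, adjusted p = 0.0471). At this depth a fall of several fold and no change could not be told apart.

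The coactivator pair ran in opposite directions. Cited1 (gene ID 12705, X chromosome, 102247378 to 102252181) had the largest change of the 7 genes, from 3.75, 10.6 and 2.11 CPM in HR-negative LP to 114, 221 and 172 CPM in HR-positive LP and 155, 248 and 212 CPM in ML. The lowest HR-positive LP library was over 10 times the highest HR-negative LP library, and ML overlapped with HR-positive LP. Cited1 rose 29.8-fold in HR-positive LP (log2 fold change 4.89, 95% interval 3.72 to 6.07, adjusted p = 7.08e-05) and 36.1-fold in ML (5.18, 3.99 to 6.36, adjusted p = 1.68e-05). Without HR-negative LP replicate 2 these differences were larger, at 5.82 and 6.10 on the log2 scale. Between ML and HR-positive LP the difference was 0.28 (-0.71 to 1.27, adjusted p = 0.934).

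Cited2 (gene ID 17684, chromosome 10, 17723228 to 17725674) stepped down across the populations. It stood at 88.5, 68.6 and 52.7 CPM in HR-negative LP, at 46.1, 26.8 and 30.5 CPM in HR-positive LP and at 19.0, 13.7 and 17.2 CPM in ML, with no overlap between any pair of populations. Between HR-positive LP and ML, 16.5% of tested genes stood lower in ML without overlap. It fell by 1.02 on the log2 scale from HR-negative LP to HR-positive LP (95% interval -1.56 to -0.49, adjusted p = 0.00908) and by 1.05 from HR-positive LP to ML (-1.59 to -0.51, adjusted p = 0.0231), the single call among the members in that comparison. From HR-negative LP to ML it fell by 2.07 (-2.63 to -1.52, adjusted p = 5.53e-05), which is 4.21-fold lower. The call between ML and HR-positive LP was lost with limma voom (adjusted p = 0.0519), with scaling by library totals alone (0.0526) and without HR-positive LP replicate 1 (0.103), ML replicate 2 (0.128) or ML replicate 3 (0.0723).

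Myb (gene ID 17863, chromosome 10, 21124930 to 21160984) resembled Cited1 in its low start. HR-negative LP libraries were at 4.94, 6.57 and 3.36 CPM, HR-positive LP libraries at 43.5, 67.9 and 44.3 CPM, and ML libraries at 64.1, 92.7 and 63.0 CPM. HR-negative LP was far below both other populations, which overlapped with each other. Myb rose 10.3-fold in HR-positive LP (log2 fold change 3.37, 95% interval 2.74 to 4.0, adjusted p = 1.53e-05) and 14.6-fold in ML (3.86, 3.22 to 4.51, adjusted p = 1.55e-06). The difference between ML and HR-positive LP was 0.50 (-0.07 to 1.07, adjusted p = 0.484).

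With HR-positive LP set against the other LP population (the LP comparison), Foxa1, Gata3, Tbx3, Cited1 and Myb rose, 5 of 7, and Cited2 fell. Of all 15910 tested genes 29.9% were called there, 17.2% higher and 12.8% lower, and 43.9% had populations without overlap. The 2033 genes called lower became 1329 when replicate 1 of HR-positive LP was left out and 1211 when its replicate 2 was. The same 5 genes rose and the same 1 fell in ML against HR-negative LP, where 44.6% of tested genes were called, 23.3% higher and 21.3% lower, and 53.1% did not overlap. In ML against HR-positive LP 0 rose and 1 fell by edgeR, where 6.79% of tested genes were called, 0.0943% higher and 6.7% lower. No member was higher there at an unadjusted p below 0.05 either (0), nor by DESeq2 or limma voom. Between libraries with the same replicate number, Foxa1, Tbx3, Cited1 and Myb were each higher in ML in 3 of 3 pairs. Gata3 and Tbx2 were higher in 2 of 3 pairs and Cited2 in 0 of 3. The share of all tested genes higher in 3 of 3 pairs was not counted. With the replicate number as a block the differences of Foxa1, Tbx3, Cited1 and Myb were 0.42 (adjusted p = 0.317), 0.29 (0.46), 0.31 (0.735) and 0.50 (0.054), and these did not pass the test. Of all genes, 15 were called higher in ML, and 71 with the replicate number as a block. The median log2 fold change of the 7 genes was 1.82, 2.11 and 0.28 in the LP comparison, in ML against HR-negative LP and in ML against HR-positive LP, beside 0.01, 0.03 and 0.01 over all tested genes. The comparisons share libraries, and the 7 genes were picked by name, so these counts describe them and show nothing particular to them.

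**Figure D2:**
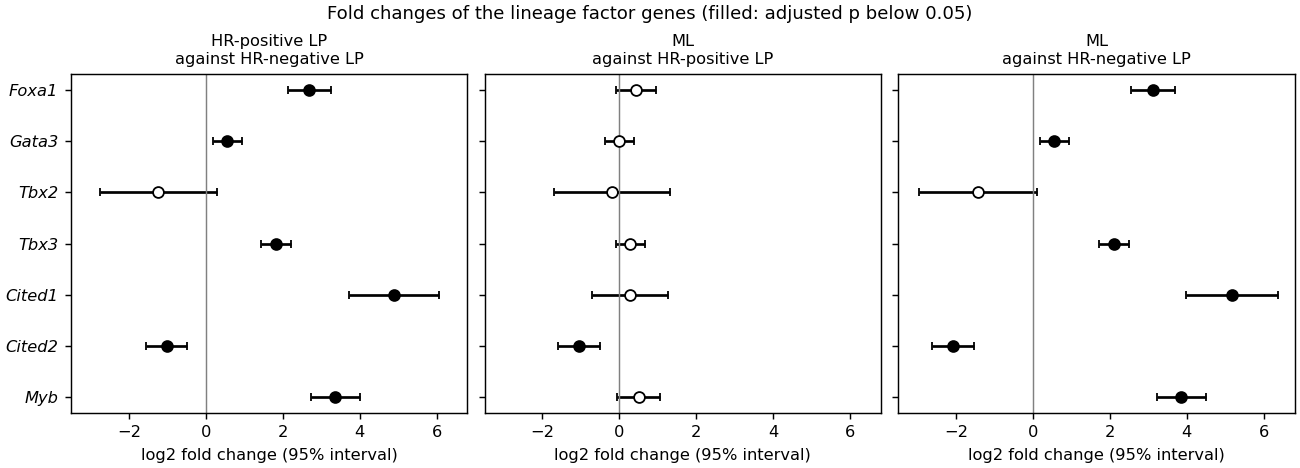
Log2 fold change (horizontal axis) of the 7 genes in the 3 comparisons of populations, with bars for the 95% interval and filled points for an adjusted p below 0.05. In ML against HR-positive LP the filled point is that of Cited2 at -1.05, and every other interval includes 0.

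Per kilobase of gene length, which allows genes to be set beside each other, the order of the factors changed between the populations. In HR-negative LP, Gata3 and Cited2 led with levels of 36.8 ± 2.08 and 35.5 ± 9.10 CPM per kb (SD, n = 3) and overlapped with each other. Foxa1 followed at 17.2 ± 4.88 CPM per kb, apart from both. Tbx3 at 8.52 ± 2.23 and Cited1 at 5.64 ± 4.64 CPM per kb overlapped, as did Myb at 1.31 ± 0.425 and Tbx2 at 0.563 ± 0.397 CPM per kb.

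In HR-positive LP, Cited1 and Foxa1 led at 173 ± 54.9 and 111 ± 19.6 CPM per kb, with overlapping libraries. Gata3 at 54.2 ± 6.81 and Tbx3 at 30.2 ± 0.697 CPM per kb came next, each apart from its neighbours. Cited2 at 17.5 ± 5.21 and Myb at 13.7 ± 3.66 CPM per kb overlapped, and Tbx2 was last at 0.238 ± 0.0869 CPM per kb. ML kept the leading pair, with Cited1 at 211 ± 47.8 and Foxa1 at 150 ± 34.4 CPM per kb, but Myb (19.4 ± 4.45) now stood above Cited2 (8.45 ± 1.36 CPM per kb) without overlap. The level of Cited2 was thus above that of Cited1 in every HR-negative LP library and below it in every other library. These levels rest on the gene lengths in the deposited table, from 975 bases for Cited1 to 5082 bases for Tbx3.

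**Figure D3:**
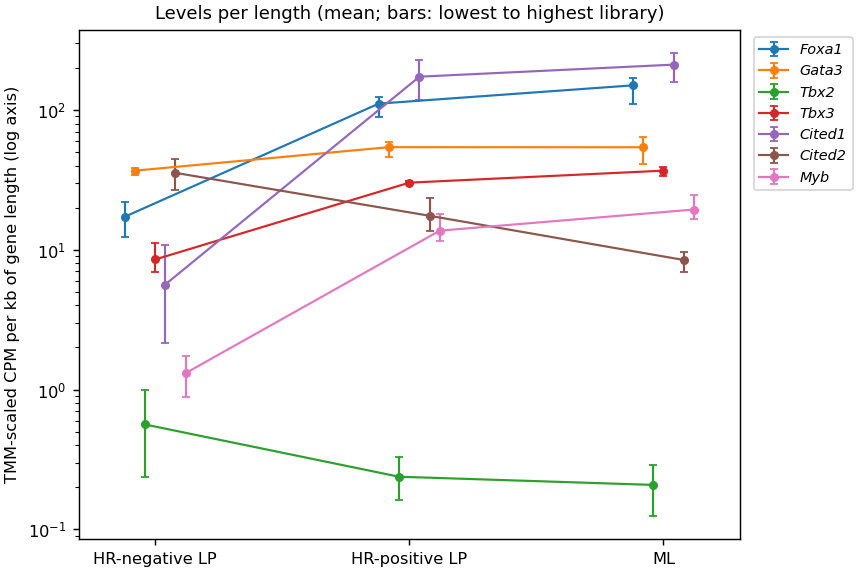
Level per length (TMM-scaled CPM per kb of gene length, log axis) of the 7 genes in each population, as the mean of 3 libraries with bars from the lowest to the highest library. The lines of Cited1 and Cited2 cross between HR-negative LP (5.64 and 35.5 CPM per kb) and HR-positive LP (173 and 17.5 CPM per kb), and those of Foxa1 and Gata3 cross as well.

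HR-positive LP lay nearer to ML than to HR-negative LP for the factors that rose. On log2 CPM, with HR-negative LP at 0 and ML at 1, HR-positive LP stood at 0.87 ± 0.09 for Foxa1, 0.87 ± 0.02 for Tbx3, 0.94 ± 0.09 for Cited1 and 0.87 ± 0.09 for Myb (SD over 3 HR-positive LP libraries). Gata3 was at 1.03 ± 0.35, too spread to place, and Cited2 was at 0.50 ± 0.20. Over all genes that differed between the ends by more than 1 on the log2 scale, the median position was 0.85 for 2317 genes higher in ML and 0.48 for 2202 genes lower in ML. Foxa1, Tbx3 and Myb lay within the interquartile range of 0.78 to 0.91 for genes higher in ML and Cited1 above it, and Cited2 lay within the range of 0.34 to 0.59 for genes lower in ML. Gata3, with a difference under 1, is not in that set.

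The distance from the midpoint of both ends on the log2 scale was tested in the same edgeR fit. HR-positive LP was above the midpoint for Foxa1 by 1.13 (SE 0.20, adjusted p = 0.0055), for Tbx3 by 0.77 (SE 0.14, adjusted p = 0.00726), for Cited1 by 2.31 (SE 0.38, adjusted p = 0.00341) and for Myb by 1.43 (SE 0.22, adjusted p = 0.0023). For Cited2 the distance was 0.02 (95% interval -0.44 to 0.48, adjusted p = 0.993) and for Gata3 0.28 (-0.04 to 0.60, adjusted p = 0.476). In this test 6.01% of all genes were called, 5.97% above and 0.0377% below the midpoint. On linear CPM the positions were lower for the genes that rose, at 0.71 ± 0.15 for Foxa1, 0.77 ± 0.02 for Tbx3, 0.82 ± 0.27 for Cited1 and 0.69 ± 0.20 for Myb, and higher for Cited2 at 0.67 ± 0.19. In sorted bulk samples a mixture of cells at either level and an intermediate level in each cell cannot be told apart, nor can fewer cells of a type and less RNA per cell.

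**Figure D4:**
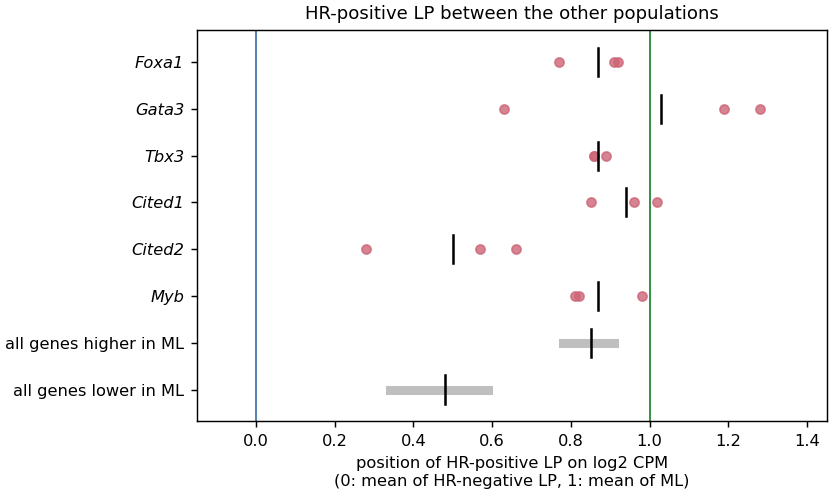
Position of HR-positive LP on log2 CPM between the mean of HR-negative LP (0) and the mean of ML (1) for the 6 members called between these ends, with points for the 3 HR-positive LP libraries and black bars for the position of their mean. Grey bars give the interquartile range over all genes higher or lower in ML, with medians at 0.85 and 0.48.

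For each member, the 3 genes with the most similar log2 CPM over the 9 libraries were taken from 9049 named protein-coding genes. For Foxa1 they were Trim29 (r = 0.9982), Phldb1 and Pdlim2, and Trim29 had means of 11.5, 63.1 and 82.6 CPM, in the order of populations used above. For Tbx3 they were Lrrk1 (r = 0.9994), Areg and St3gal4, and Areg, the gene of an EGF receptor ligand, had means of 21.9, 712 and 1050 CPM. Cited1 was most like Fxyd2 (r = 0.9989), Kif5c and Wnt4, the last a Wnt ligand gene at 8.24, 206 and 262 CPM. Myb was most like Nub1 (r = 0.9978), Rhoc and Aldh3b1. Cited2 was most like Cat (r = 0.9925), the catalase gene, Ccn1 and Car8, and Cat stood at 103, 56.2 and 34.2 CPM. Gata3 (Atp13a2, r = 0.9759, then Rilpl1 and Gprc5c) and Tbx2 (Med20, r = 0.9391, then Nae1 and Dlgap4) had looser neighbours. The 9 libraries fall into 3 populations that these genes separate, so a high r mostly restates the order and spacing of 3 group means.

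Relatives of the members were mostly silent. Of 25 FOXA, GATA, T-box, CITED and MYB relatives found, 8 passed the filter, and among those 0 rose and 2 fell in the LP comparison by edgeR (median log2 fold change -0.85). Of all tested genes 17.2% rose and 12.8% fell there. The count of rises among the relatives was 0 also at an unadjusted p below 0.05, by DESeq2 and by limma voom. The count of falls became 1 when any single library other than HR-negative LP replicate 1 or ML replicate 2 was left out. Foxa2, Foxa3 and Gata1 to Gata6 other than Gata3 were each below 0.25 CPM on average in every population. Trps1, a GATA-type repressor, was abundant and fell from 1170 ± 218 CPM in HR-negative LP to 837 ± 33.5 CPM in HR-positive LP (log2 fold change -0.48, adjusted p = 0.0378), with 675 ± 44.0 CPM in ML. Cited4, another coactivator of the CITED family, fell from 54.6 ± 24.6 to 21.3 ± 4.84 and then to 8.51 ± 2.46 CPM (-1.36, adjusted p = 0.00815, and -1.33, adjusted p = 0.0285), in the direction of Cited2 and against Cited1. The call in ML against HR-positive LP was lost with limma voom and with scaling by library totals alone. It was also lost without replicate 1 or 2 of HR-positive LP or replicate 2 or 3 of ML. Mybl1, a MYB relative known from male germ cells, stood at 7.26 ± 2.06, 4.28 ± 0.415 and 2.75 ± 1.28 CPM and was called lower in ML than in HR-negative LP (-1.39, adjusted p = 0.0153).

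Partners of the members changed in both directions. Of 29 tested hormone receptors and cofactors, 9 rose and 3 fell in the LP comparison (median 0.18), beside 17.2% and 12.8% of all tested genes. Without HR-negative LP replicate 1, 6 fell. In ML against HR-positive LP 0 rose by edgeR and 3 fell, beside 0.0943% and 6.7% of all tested genes. The count of falls was 1 without HR-positive LP replicate 1 or 3 or ML replicate 2 or 3. Esr1, the estrogen receptor gene, rose from 15.1 ± 5.83 to 123 ± 8.83 CPM, and Spdef, an ETS factor gene of secretory cells, from 3.83 ± 0.583 to 19.9 ± 3.65 CPM (log2 fold change 2.38, adjusted p = 3.85e-05). Zfpm1, which encodes the GATA cofactor FOG1, rose from 17.8 ± 2.41 to 28.2 ± 0.823 CPM (0.66, adjusted p = 0.00714). The shared CITED partners Ep300 and Crebbp did not pass the test, at -0.07 (adjusted p = 0.855) and -0.20 (adjusted p = 0.605). Tfap2c, a partner of CITED2 and an AP-2 factor gene, fell from 153 ± 18.4 to 52.5 ± 4.43 and then to 8.59 ± 1.78 CPM, while Tfap2b rose from 75.8 ± 1.66 to 176 ± 33.8 CPM. Tle4, a corepressor gene, fell from 56.2 ± 8.26 through 30.6 ± 5.56 to 18.6 ± 1.44 CPM.

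Genes listed as responsive to FOXA1, GATA3 or the estrogen receptor were also divided. Of 19 tested, 7 rose and 3 fell in the LP comparison, beside 17.2% and 12.8% of all tested genes. Their median was 0.10 beside 0.01 over all tested genes, and 5 of the list fell without HR-negative LP replicate 1. Ly6a, the Sca-1 gene, Prlr, the prolactin receptor gene, Areg and Stc2, the gene of a secreted glycoprotein, had log2 fold changes of 5.33, 4.38, 5.02 and 5.05. Among the genes that rose, Ly6a, Prlr, Areg and Wnt4 are also in the list of hormone sensing markers. Whether the rises were responses to these factors was not tested. Bcl2, a survival gene, fell from 127 ± 11.8 to 40.0 ± 2.74 and then to 1.10 ± 0.568 CPM. Igfbp5 fell from 10900 ± 2830 through 3510 ± 283 to 50.9 ± 24.8 CPM, and Muc1 from 317 ± 19.6 through 110 ± 12.3 to 17.7 ± 8.41 CPM. These 3 genes were the calls of the list in ML against HR-positive LP, where 0 rose by edgeR, DESeq2, limma voom or at an unadjusted p below 0.05. Of all tested genes 0.0943% rose and 6.7% fell between these populations by edgeR. A fit of these populations alone called 2 rises there, and 1 among the receptors and cofactors, and the replicate block also called 1 among the latter.

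Genes known as repressed by TBX2 or TBX3 gave 1 rise and 1 fall among 8 in the LP comparison (median 0.50). Of all tested genes 17.2% rose and 12.8% fell there. DESeq2 and the replicate block each called 2 rises and 2 falls in the list. The counts were 2 and 1 by limma voom and in the fit without HR-negative LP replicate 1. At an unadjusted p below 0.05 they were 3 and 2. Cdkn2b, which encodes the inhibitor p15, stood at 0.545, 0 and 0 CPM in the HR-negative LP libraries and at 2.46, 1.51 and 2.37 CPM in HR-positive LP, without overlap (adjusted p = 0.0529). Cdkn1a, the p21 gene, fell from 405 ± 87.2 to 180 ± 38.5 CPM (log2 fold change -1.17, adjusted p = 0.00157) and to 94.9 ± 10.3 CPM in ML, the opposite order to Tbx3. Cdkn2a, the gene of p16 and p19ARF, had no count in HR-negative LP and stood at 0.594 ± 0.181 CPM in HR-positive LP. That mean was 34.7-fold above a floor of 3 counts over the HR-negative LP libraries, and the spread of the mean is not in this ratio. Its level was low in all 3 populations, with 1.06 ± 0.531 CPM in ML.

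Of 9 genes known as targets of MYB, 0 rose and 3 fell in the LP comparison by edgeR (median -0.94), while Myb itself rose. Over all tested genes the shares were 17.2% and 12.8%. At an unadjusted p below 0.05 the counts of the list were 1 and 6, by DESeq2 0 and 6 and by limma voom 0 and 5, and 5 fell without HR-negative LP replicate 1. The genes that fell were Bcl2, Kit and Mcl1, the last a survival gene that stood at 1990 ± 130, 823 ± 95 and 370 ± 57.5 CPM in the 3 populations. Kit, a receptor kinase gene, stood at 1540 ± 227, 515 ± 47.7 and 7.46 ± 4.66 CPM. Of the cell cycle genes in the list, Ccnb1 stood at 0.215 ± 0.0386, 0.706 ± 0.450 and 1.65 ± 0.0693 CPM. In ML against HR-positive LP 0 of the list rose and 4 fell by edgeR (median -0.61), beside 0.0943% and 6.7% of all tested genes. By limma voom 3 fell. The 4 were Bcl2, Kit, Mcl1 and Cdk6, and Cdk6 fell by 2.13 on the log2 scale (adjusted p = 0.00547).

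Among 14 hypoxia genes, 3 rose and 4 fell in the LP comparison (median -0.35), beside 17.2% and 12.8% of all tested genes. The count of falls was 1 when replicate 1 of HR-positive LP was left out, and 2 when replicate 2 of either LP population was. Hif1a, counted among the cofactors, rose from 128 ± 39.1 to 474 ± 104 CPM (log2 fold change 1.89, adjusted p = 0.000747), opposite to Cited2. Bnip3 and Adm rose with it, from 6.20 ± 2.69 to 16.4 ± 4.51 CPM and from 11 ± 1.79 to 21.2 ± 3.93 CPM. P4ha1 also rose, from 10.9 ± 1.61 to 16.7 ± 3.02 CPM. Egln3, itself a hypoxia gene of the list, encodes a prolyl hydroxylase that marks HIF1A for destruction. It fell from 118 ± 22.4 to 40.1 ± 4.44 CPM. Pdk1 (81.8 ± 15.8 to 53.5 ± 9.86 CPM) and Pgk1 (33.1 ± 2.25 to 23.7 ± 1.85 CPM) fell as well. Egln3 was the single call of the list in ML against HR-positive LP, at 6.04 ± 1.4 CPM in ML, where 6.7% of all tested genes fell. There 2 genes of the list fell without HR-positive LP replicate 1, HR-negative LP replicate 1 or HR-negative LP replicate 3, and 3 with the replicate block. Slc2a1, a glucose transporter gene, fell from 531 ± 220 to 246 ± 82.3 CPM (-1.11, adjusted p = 0.0178), with overlapping libraries.

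**Figure D5:**
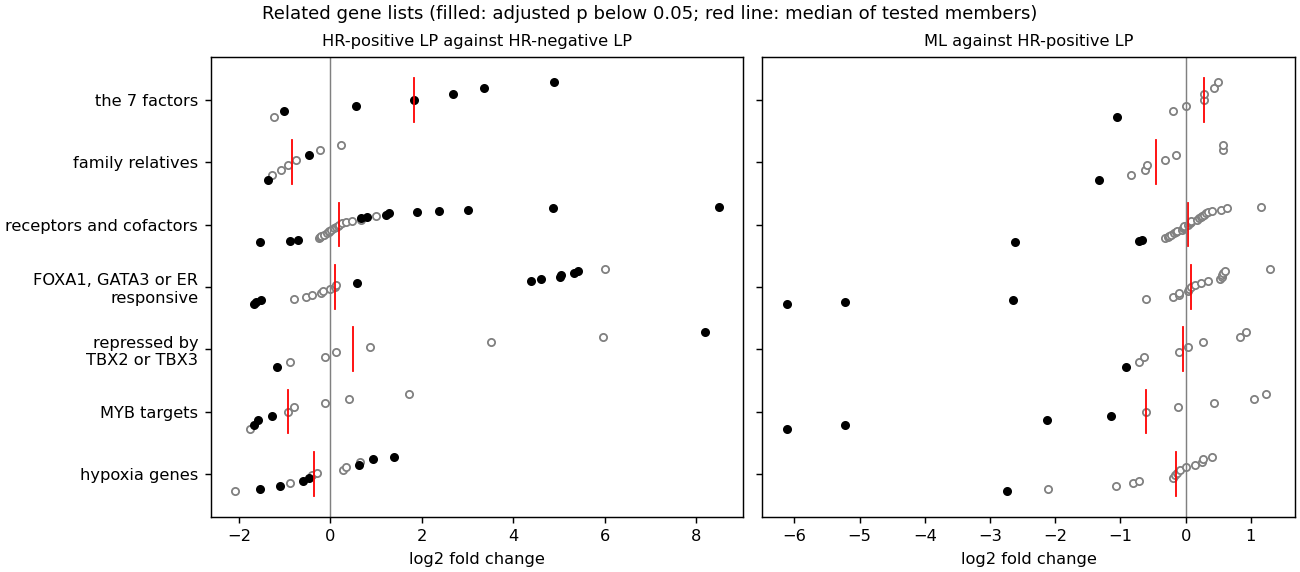
Log2 fold change (horizontal axis) of the 7 factors and of 6 lists of related genes in the LP comparison (left) and in ML against HR-positive LP (right), with filled points for an adjusted p below 0.05 and a red line at the median of tested genes. Most lists hold calls in both directions on the left, and filled points on the right are all below 0. Of all tested genes 0.0943% were called higher in ML against HR-positive LP. Values of genes with no count in HR-negative LP, such as Cdkn2a, are fitted values and not folds against the floor.

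Because Gata3 and Myb are also expressed in lymphoid cells, 12 markers of T, innate lymphoid and B cells were summed in each library. In the order of populations above they came to 0.537 to 2.57, 7.94 to 9.83 and 11.9 to 15.4 CPM, in the direction of Myb. Il7r and Il1rl1 were the called markers, both higher in HR-positive LP and ML, and Il7r stood at 0.343, 0.532 and 0.0358 CPM in the HR-negative LP libraries and at 5.97, 5.37 and 4.4 CPM in HR-positive LP. Their part in the level of Myb was not tested. Cd3g, Cd4, Cd8a and Ms4a1 had no count in any library, Cd3e had 1 in all and Cd3d 9 in 1 HR-positive LP library. Lck was detected in 8 of 9 libraries and reached 1.49, 1.42 and 1.17 CPM in the 3 populations. Cd79a reached 0.931, 0.252 and 0.191 CPM, and Cd79b had 1 count in HR-positive LP and 10 in ML. Fibroblast markers, relevant because T-box factors are also made in stroma, summed to 74.5 to 127, 168 to 307 and 203 to 360 CPM in the 3 populations. Of these 7 markers Dcn and Col6a3 rose and 5 fell in the LP comparison, among them Col1a1 and Pdgfra. Endothelial markers summed to 6.37 to 14.5, 40.2 to 62.8 and 59.6 to 80.5 CPM, with Vwf as their single call, and 8 alveolar progenitor markers to 14600 to 17100, 4700 to 5350 and 155 to 305 CPM. Erythrocyte markers summed to 0.343 to 1.57, 3.84 to 11.7 and 4.62 to 12.4 CPM, with Hba-a1 and Hba-a2 called higher in the LP comparison. Basal markers summed to 57.9 to 103, 38.2 to 57.8 and 33.4 to 52.4 CPM, with 3 of 10 called lower there. The part of these other cells in the levels of the 7 genes was not tested.

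Counting overlaps touched small parts of the members. In the GENCODE M21 annotation (GRCm38), exons of Gata3 shared 3.9% of their bases with the antisense gene Gm13256 and 1.94% with 9230102O04Rik, those of Myb shared 6.26% with antisense Gm26577, and those of Tbx3 shared 1.74% with antisense Tbx3os1. Foxa1, Tbx2, Cited1 and Cited2 overlapped no other exon, and none of their 50-base windows occurred in another annotated transcript. Strand is not marked by this kit, and reads of such antisense partners and of the member cannot be told apart.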

How the data were processed

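Libraries were made from miRNeasy-extracted, DNase-treated RNA with a TruSeq kit that does not mark strand, per the labels' protocols. The authors deposited raw counts per gene with gene lengths, tied to featureCounts and mm10 per the submitters' processing notes; aligner and annotation are not given in the sources used here. The series table and the sample files differed in 0 values. Of 27179 gene IDs, 25275 (93%) had a symbol in RefSeq (GRCm38.p6).

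Genes kept by edgeR's filterByExpr (15910) were scaled by TMM and tested with edgeR (quasi-likelihood, 1 fit of all 9 libraries, no covariate). Benjamini-Hochberg adjustment covered all tested genes, and 0.05 was the threshold. Intervals are 95% intervals from the fit. Positions and likeness used log2 CPM with a prior count of 2. Depths from 27219103 to 108119756 counts left few counts for Tbx2 (21 to 100 per library) and, in HR-negative LP replicate 3, for Cited1 (59) and Myb (94). Named genes were the 7 members, the 3 most alike genes per member and up to 4 genes with the smallest p per list and comparison, plus Cd14, Pgr and Esr1. Zfpm1, Ep300, Crebbp, Tfap2b, Ccnb1, P4ha1, Pdk1, the silent relatives and single marker genes fall outside this rule and were chosen after their values were seen. The members and lists, the latter from general knowledge, were chosen with earlier results of these data known, and the midpoint test and linear positions were added after seeing the data. The procedure was tested on simulated data.

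Libraries of HR-positive LP and ML with the same number deviated together (correlations across genes 0.183, 0.121 and 0.189), so the numbers may pair them, from the data alone. For HR-negative LP, same-number correlations were 0.133, 0.039 and 0.147 with HR-positive LP and 0.053, 0.025 and 0.085 with ML. The highest between different numbers were 0.019 and 0.018, so the numbers may pair HR-negative LP as well. Alternatives were DESeq2 size factors, DESeq2, limma voom, other filters, library totals, only the groups compared, a replicate block and leaving out each library. Software was edgeR 4.0.16, DESeq2 1.42.0 and limma 3.58.1 under R 4.3.3, and matplotlib 3.10.9 under Python 3.11.15.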

Additional observations from a re-analysis of the deposited data

How the results depend on the processing

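The calls of Foxa1, Tbx3, Cited1 and Myb against HR-negative LP, and above the midpoint, kept direction and call under every alternative run, as did Cited2 against HR-negative LP. The count of members lower in ML than in HR-positive LP, 1, became 0 with limma voom and with library totals alone, and ranged from 0 to 1 when a library was left out. The count lower in ML than in HR-negative LP ranged from 1 to 2. The position of HR-positive LP for Tbx3 was 0.85 with DESeq2 size factors and ranged from 0.84 to 0.88 without a library. The midpoint test called 956 genes, and from 566 to 1168 without a library. Differences near 0 changed sign: Gata3 in ML against HR-positive LP was 0.03 with DESeq2 size factors and with DESeq2, 0.00 with the CPM filter and with only the groups compared, 0.05 with library totals, and between -0.14 and 0.16 when a library was left out. Tbx2 in that comparison ranged from -0.52 to 0.12 when a library was left out. Cited2 against the midpoint was -0.02 with DESeq2 size factors and with DESeq2, -0.01 with the replicate block, and from -0.25 to 0.17 when a library was left out. With the replicate block 5 members rose and 1 fell between the LP populations and 1 fell in ML against HR-positive LP (Cited2, -1.02, adjusted p = 0.00328), and the block changed no call of a member. It called 71 genes higher in ML than in HR-positive LP, where the fit without it called 15, and other alternatives gave between 4 and 216. Library totals alone moved the median of all genes from 0.01 to 0.12 in HR-positive LP and from 0.03 to 0.19 in ML against HR-negative LP, with 3182 genes higher and 1535 lower in the first and 4463 and 2801 in the second, where TMM gave 2731 and 2033, and 3700 and 3389. The cause of these changes was not tested. Low counts limit Tbx2, with 21 to 100 counts per library, and Cited1 and Myb in HR-negative LP replicate 3, with 59 and 94.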

Other observations

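Replicate 2 held the highest level of Cited1 and of Myb in each of the 3 populations. Cited1 stood at 10.6, 221 and 248 CPM in these libraries, from HR-negative LP to ML, and Myb at 6.57, 67.9 and 92.7 CPM. The summed level of 8 hormone sensing markers, which include Foxa1, was also highest there, at 488, 7180 and 11400 CPM, with Prlr giving 303, 4700 and 7750 CPM of it. Of these markers, Pgr (15.8, 329 and 557 CPM) and Wnt4 (15.9, 254 and 309 CPM) were also highest in replicate 2 of each population. So was Stc2, outside the marker list, at 17.5, 420 and 600 CPM. Other markers did not follow throughout. In HR-positive LP replicate 2, Areg (708 CPM, against 818 in replicate 3), Ly6a (684, against 717 in replicate 1) and Esr1 (116, the lowest) were not highest. In ML neither were Areg and Ly6a. The share of all genes highest in replicate 2 was not counted. Foxa1 and Tbx3 were highest in replicate 2 in HR-negative LP but not in HR-positive LP. In ML replicate 2, Foxa1 was at 541 CPM beside 540 in replicate 1, and Tbx3 was lowest, at 172 CPM. Whether the shared number marks a shared animal, day or cycle stage was not tested.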
